A study of Mus musculus with 28 samples.

Results

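The comparison set the wild-type bladder at embryonic day 18 (E18) against the wild-type large intestine of the same day. Its samples were the arrays titled as wild-type bladder and wild-type large intestine at E18, 4 of the 28 in the series, with 2 arrays for each organ. All 4 came from Balb/c mice that did not carry the p63 knockout. The series held 14 groups of 2 arrays, covering both genotypes of this strain. They took in the bladder at E15, E18 and E19 and, at E18, the large and small intestine and the distal and proximal stomach. The p63 KO bladder and large intestine at E18 served as a second pair of the same organs on 4 other arrays. The labels name whole tissues. They do not say how the organs were dissected, which part of the large intestine was taken, what the knockout allele removes, or whether 2 replicates came from different animals. The p-values therefore rest on the variation among the arrays, some of which may be technical.

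Bladder and large intestine both hold epithelium of hindgut descent. The cloaca, the chamber at the end of the hindgut, is divided during development into a ventral urogenital sinus, from which the bladder forms, and a dorsal anorectal part. The bladder is then lined by urothelium, a layered epithelium with p63-positive basal cells and superficial cells plated with uroplakins. The large intestine keeps a single columnar layer with mucus-secreting goblet cells under the intestinal transcription factors of the Cdx family. Smooth muscle surrounds both, and the gut wall in addition carries the enteric nervous system.

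Expression is given as log2 of the array signal, so a difference of 1 is a 2-fold difference, and every difference is bladder minus large intestine. The spread of a probe set was estimated by limma from all 28 arrays, and a gene was called where the adjusted p was under 0.05. The 2 bladder arrays correlated across genes at 0.991 and the 2 large intestine arrays at 0.98, while arrays of different organs correlated at 0.843 to 0.858. Large intestine arrays were the less alike. In them 373 of 13613 genes, 2.74%, differed between the replicates by more than 1 on the log2 scale, and replicate 1 was the higher in 284 of these. In the bladder 101 genes did so, 0.742%. The 3' minus 5' signal of the actin control probes, a measure of RNA integrity, was 0.572 and 0.556 in bladder and 0.696 and 0.632 in large intestine. The Y-linked gene Eif2s3y read 11.80 and 4.13 in bladder and 11.85 and 4.35 in large intestine, so replicate 1 was high and replicate 2 low in both organs. X-linked Xist went the other way, at 6.0 and 12.99 in bladder and 6.28 and 13.43 in large intestine. The 2 arrays of an organ were thus not repeats of 1 sample, and replicate and sex cannot be told apart.

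Of the 13613 genes tested, 5542 (40.7%) were called, 2531 higher in bladder (18.6%) and 3011 lower (22.1%). At a fold of at least 2 there were 1010 higher (7.42%) and 1265 lower (9.29%). At a fold of at least 16 there were 77 higher (0.566%) and 164 lower (1.2%). The direction of small differences depended on the scale of the arrays. Higher genes made up 45.7% of the calls as deposited, 57.7% after each array was centred on its median and 54% after quantile normalization, and the median over all genes moved between -0.045 as deposited and 0.059 after centring. Both arrays of one organ lay above both of the other for 73.2% of genes.

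The 15 largest differences in each direction held urothelial, stratified-epithelial and muscle genes on the bladder side and gut epithelial genes on the other. Higher in bladder were 3 genes of the superficial urothelium or its vesicles (Snx31, Upk3a and Upk2), 3 stratified-epithelial genes (Sprr1a, Krt15 and Trp63), 3 of striated-muscle type (Acta1, Tnnt3 and Casq2), the urea transporter Slc14a1, the germ-cell gene Asz1, the membrane raft protein Mal, the sphingolipid synthesis genes Sptlc3 and Sptssb, and the cytochrome P450 Cyp1b1. Lower in bladder were the trypsin inhibitors Spink1 and Spink4, the mucus-layer genes Muc2, Tff3 and Zg16, the hormone genes Insl5 and Gcg, the transcription factor Cdx2, the antibacterial protein Lypd8, the scavenger-receptor protein Dmbt1, the brush-border enzyme Mgam, the peroxisomal oxidase Hao2, and Mptx1, Sval1 and Clrn3. Each of the 30 was called in every alternative processing that was run, and each was called the same way between the knockout organs. Many were not particular to these organs. Spink1, Mptx1, Clrn3, Mgam, Hao2 and Lypd8 averaged 14.26, 14.08, 13.07, 13.38, 11.5 and 14.28 in wild-type small intestine, near their large intestine levels. Krt15 and Trp63 averaged 14.48 and 13.24 in proximal stomach, and Cyp1b1 averaged 11.39, 9.64 and 9.83 in proximal stomach, distal stomach and small intestine.

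The regions in front of 6 of these genes are shown, taken from those of the 30 with a promoter entry. They are not simply the largest differences. Snx31 and Slc14a1 ranked above Asz1, and Spink1 ranked above Mptx1, Sval1 and Clrn3, but their regions are not shown. The 250 bases before the annotated start were taken from RefSeq promoters of assembly GRCm38.p6, which held 19 of the 30 genes, and 3 genes of each direction are given 5′ to 3′. Capitals mark matches, on either strand, to the letters TTTATG and the letters TTTATT, searched for Cdx factors, to CAAAGT for Hnf4, to GTTAAT for Hnf1, to AGATAA for Gata factors and to CATGTC for p63. Of the genes higher in bladder, these are the sequences:
Upk3a (chr15:85016891-85017140, plus strand): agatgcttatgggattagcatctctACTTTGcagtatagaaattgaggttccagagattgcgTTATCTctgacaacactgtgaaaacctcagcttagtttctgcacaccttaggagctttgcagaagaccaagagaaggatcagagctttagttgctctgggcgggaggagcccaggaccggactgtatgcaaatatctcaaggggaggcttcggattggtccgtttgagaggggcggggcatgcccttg
Sprr1a (chr3:92485882-92486131, minus strand): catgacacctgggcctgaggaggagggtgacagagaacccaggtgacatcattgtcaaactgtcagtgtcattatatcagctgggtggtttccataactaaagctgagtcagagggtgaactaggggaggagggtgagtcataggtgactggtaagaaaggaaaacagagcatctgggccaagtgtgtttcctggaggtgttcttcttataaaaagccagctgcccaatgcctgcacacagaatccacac
Asz1 (chr6:18109062-18109311, minus strand): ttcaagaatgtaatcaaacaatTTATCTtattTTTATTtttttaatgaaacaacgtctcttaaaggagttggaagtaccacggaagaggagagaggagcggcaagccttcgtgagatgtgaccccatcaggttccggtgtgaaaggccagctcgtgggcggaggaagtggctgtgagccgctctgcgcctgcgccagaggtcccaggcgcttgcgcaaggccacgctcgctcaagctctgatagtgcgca

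Of the genes lower in bladder, these are the sequences:
Mptx1 (chr1:174330268-174330517, plus strand): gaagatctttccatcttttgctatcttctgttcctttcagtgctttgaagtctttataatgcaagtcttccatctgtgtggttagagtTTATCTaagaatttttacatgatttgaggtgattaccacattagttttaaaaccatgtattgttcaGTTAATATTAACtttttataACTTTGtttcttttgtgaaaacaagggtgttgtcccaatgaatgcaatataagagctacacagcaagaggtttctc
Sval1 (chr6:41951378-41951627, plus strand): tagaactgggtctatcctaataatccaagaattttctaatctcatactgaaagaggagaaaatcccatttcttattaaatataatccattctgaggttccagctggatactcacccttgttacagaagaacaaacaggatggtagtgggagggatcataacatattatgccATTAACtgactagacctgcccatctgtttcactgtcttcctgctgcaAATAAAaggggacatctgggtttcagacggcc
Clrn3 (chr7:135528655-135528904, minus strand): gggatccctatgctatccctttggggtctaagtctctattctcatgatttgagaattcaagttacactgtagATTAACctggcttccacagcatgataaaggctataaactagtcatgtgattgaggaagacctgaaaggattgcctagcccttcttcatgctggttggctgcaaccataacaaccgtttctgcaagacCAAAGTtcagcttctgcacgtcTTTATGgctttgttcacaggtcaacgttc

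Upk3a held 1 match to the Hnf4 letters and 1 to the Gata letters, Asz1 held 1 Cdx match (TTTATT) and 1 Gata match, and Sprr1a held none. Mptx1 held 1 Hnf4 match, 1 Gata match and 2 Hnf1 matches that stand next to each other on opposite strands. Sval1 held 1 Hnf1 match and 1 Cdx match (TTTATT), and Clrn3 held 1 Hnf1 match, 1 Hnf4 match and 1 Cdx match (TTTATG). The short sequence CTTG, a further p63 search that is left in lower case, occurred in all 6. It also stood in 86.7% of all 27025 promoters and in 83.8% of those of tested genes, so it does not set the 6 apart. The Hnf4 letters stood in 12.5% of all promoters. The Cdx letters matched in Asz1 and Sval1 stood in 18.5% of them. Between the sets lower and higher in bladder, GTTAAT was the motif whose share differed most. It stood in 9.96% of 452 promoters of genes called at least 4-fold lower in bladder, in 3.0% of 267 of genes at least 4-fold higher, in 4.02% of 10924 tested genes and in 6.52% of all 27025. For AGATAA the shares were 10.6% in the lower set, 11.2% in the higher set, 6.04% of tested genes and 10.3% of all. For TTTATG they were 11.5%, 11.2%, 6.26% and 11.1% in the same order. A match of letters is a description of the window and not a binding site.

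**Figure D1:**
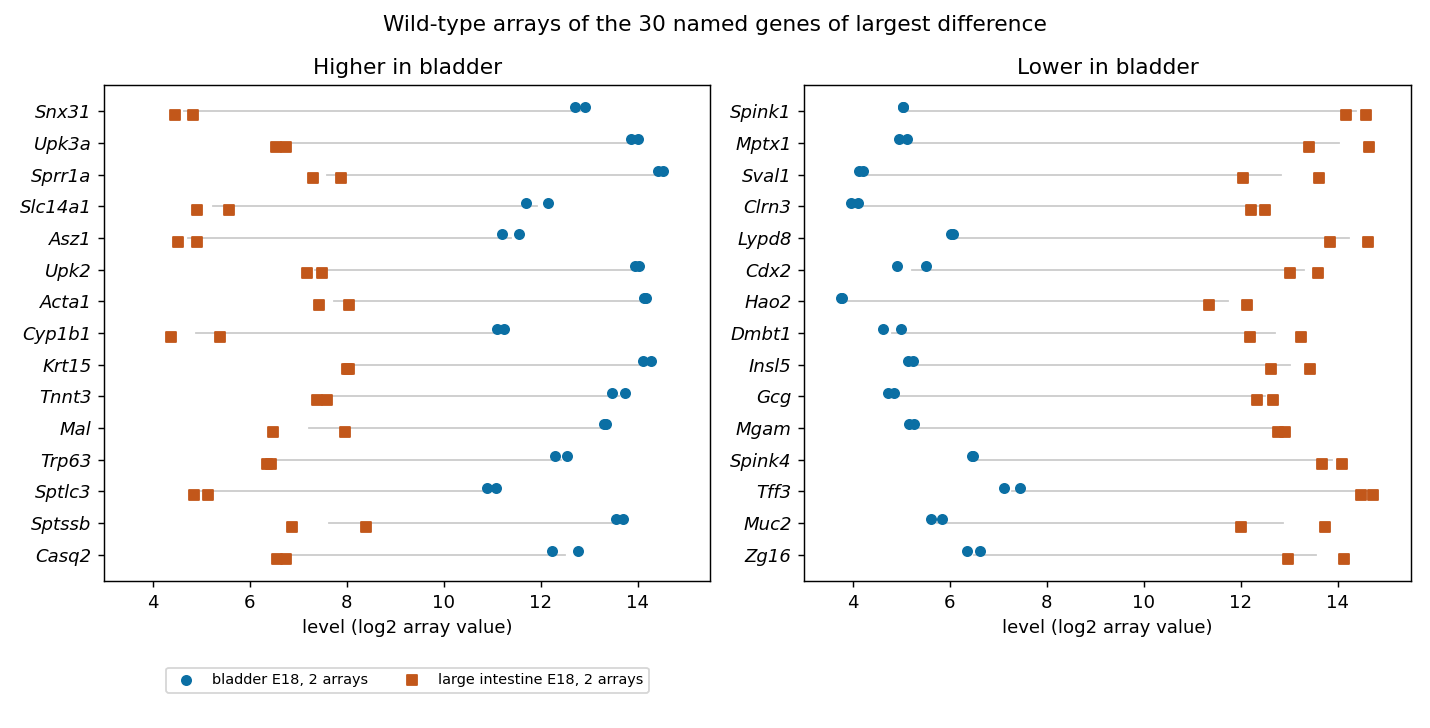
The 15 genes with the largest difference in each direction, as log2 signal per array on the horizontal axis, with bladder E18 as circles and large intestine as squares and 2 arrays per organ. No gene of the 30 has overlapping organs, and Upk3a in bladder (14.02 and 13.87) lies far above large intestine (6.54 and 6.75).

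Superficial urothelial genes made up the largest bladder differences. Snx31, a sorting nexin of uroplakin-bearing vesicles, read 12.92 and 12.71 in bladder and 4.83 and 4.47 in large intestine. The groups lay far apart, with a difference of 8.16 ± 0.26 (SE, adjusted p = 1.73e-15), 287-fold. Upk3a, a uroplakin of the urothelial plaque, read 14.02 and 13.87 in bladder and 6.54 and 6.75 in large intestine. That is a difference of 7.30 ± 0.19 (SE, adjusted p = 2.18e-16), 157-fold. Between the knockout organs the differences were 8.58 for Snx31 and 7.20 for Upk3a, so both stood as far apart where p63 was knocked out.

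The 5 uroplakins were all higher in bladder but not by the same amount. After Upk3a came Upk2, which pairs with Upk1a in the plaque, at 6.65 ± 0.30 (SE), then Upk1b, which pairs with Upk3a, at 4.66 ± 0.17. Upk1a was higher by 3.51 ± 0.25, with 13.00 and 12.81 in bladder and 9.44 and 9.34 in large intestine. Its large intestine level was itself above the 5.55, 6.24 and 6.34 that Upk1a averaged in proximal stomach, distal stomach and small intestine. Upk3b, which is also a mesothelial gene, was higher by 1.66 ± 0.15.

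Of 26 listed genes of urothelial differentiation 24 were tested, of which 20 were called higher in bladder, 1 lower and 3 not called. Their median difference was 2.54, against -0.045 over all genes. Psca, a surface protein of urothelium and stomach, was higher by 5.69, Ivl, a cornified-envelope precursor, by 5.42, and Gata3, a transcription factor of urothelium, by 5.42. Grhl3, which acts in terminal urothelial differentiation, was higher by 4.10. The exception was Elf3, an epithelial transcription factor, at 9.56 and 9.39 in bladder and 11.26 and 10.76 in large intestine, a difference of -1.53 (adjusted p = 7.9e-06). Krt20, the keratin of superficial urothelial cells and also of the differentiated gut, was not called, at 11.33 and 10.43 in bladder and 11.64 and 10.95 in large intestine (95% interval of the difference -1.15 to 0.32).

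Genes of the basal and stratified layers were higher as a narrower set. Trp63, the gene of p63 itself, read 12.29 and 12.54 in bladder and 6.44 and 6.36 in large intestine by its brightest probe set, a difference of 6.01 ± 0.38 (SE, adjusted p = 7.55e-11). The other 3 probe sets were also higher in bladder, by 3.5, 1.38 and 0.55, although the last did not pass the filter on low values. Krt5, a keratin of basal cells, read 12.71 and 12.17 in bladder and 7.08 and 6.99 in large intestine, a difference of 5.41 ± 0.19 (adjusted p = 8.31e-15). Krt15, a second basal keratin, was higher by 6.16, the transcription factor Tfap2c by 4.18 and the desmosomal plaque protein Pkp1 by 3.0.

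Of 28 listed basal genes 25 were tested, with 15 called higher and 3 lower and a median of 1.17. The 3 lower ones were the keratin Krt17, at -2.35, the desmosomal cadherin Dsc3, at -1.59, and the transcription factor Bcl11b, at -1.19. Integrin and laminin genes of the basement membrane were mixed. Itga6 (12.16 and 12.15 in bladder and 12.60 and 12.29 in large intestine) and Itgb4 were not called, while Lama3 was higher by 1.17, or by 0.62 and not called without large intestine replicate 2.

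Markers of cornified squamous epithelium split within themselves. Some were far higher in bladder. Sprr1a, a cornified-envelope precursor, read 14.52 and 14.42 in bladder and 7.30 and 7.89 in large intestine (difference 6.88 ± 0.21 SE, adjusted p = 8.39e-16). Krt4 and Krtdap were higher by 5.72 and 5.58. Krt13, a keratin of stratified mucosa, reached only 7.04 and 6.92 in bladder and 5.77 and 6.22 in large intestine, a call lost without large intestine replicate 1 (adjusted p = 0.0827). In proximal stomach, which is lined by squamous epithelium, Krt13 averaged 14.64. Lor, the cornified-envelope protein loricrin, was not called, at 7.17 and 7.06 in bladder and 7.20 and 7.53 in large intestine, with 15.10 in proximal stomach. Over the list, 23 of 25 were tested, 12 were called higher and 2 lower, with a median of 0.69.

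Some keratin and adhesion genes common to both epithelia lay close together, while more of the list was lower in bladder. Krt8 read 14.20 and 14.07 in bladder and 14.30 and 14.02 in large intestine (95% interval of the difference -0.21 to 0.15), and Krt19 and Cdh1, which encodes E-cadherin, were not called either, with intervals of -0.74 to 0.40 and -0.38 to 0.17. Epcam, an adhesion protein of simple epithelium, was lower by 1.33, with 12.48 and 12.60 in bladder and 13.88 and 13.86 in large intestine. Of 23 tested genes of this list, 13 were called lower in bladder and 2 higher, Esrp2 by 0.94 and Krt18 by 0.67, with a median of -0.52. Cldn3 (-4.19), Agr2 (-3.04) and Muc1 (-2.41) had the largest differences.

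Goblet-cell genes were lower in bladder almost throughout. Tff3, the trefoil peptide of mucus, read 7.44 and 7.12 in bladder and 14.73 and 14.48 in large intestine, a difference of -7.33 ± 0.20 (SE, adjusted p = 2.72e-16). Muc2, the main intestinal mucin, was lower by 7.14 on the log2 scale, and Zg16, a lectin of the mucus layer, read 6.61 and 6.36 in bladder and 14.13 and 12.97 in large intestine. The large intestine arrays differed by more than 1 in Zg16 and in Muc2, with replicate 1 higher, yet the organs overlapped in neither. Of 24 listed goblet genes 23 were tested and 22 were called lower, with a median of -5.18. They included the fate regulators Atoh1 (-5.18), Spdef (-5.98) and Gfi1 (-3.69). The exception was the secretory-vesicle gene Sytl2, higher by 1.04. Clca1, a goblet secretory protein, read 8.73 and 10.04 in bladder and 14.02 and 13.26 in large intestine.

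The intestinal transcription factors were lower by the widest margins among regulators. Cdx2, which specifies intestinal identity, read 5.52 and 4.91 in bladder and 13.01 and 13.59 in large intestine, a difference of -8.08 ± 0.25 (SE, adjusted p = 1.22e-15), 271-fold. Cdx1 followed at -6.27 and Hnf4a, a nuclear receptor of gut and liver, at -6.91. In the other wild-type regions Cdx2 averaged 5.46 in proximal stomach, 6.28 in distal stomach and 13.77 in small intestine, so that bladder lay with the stomach in this gene. Of 18 tested genes of hindgut and colon epithelium, 14 were called lower and none higher, with a median of -3.58. After median centring or quantile normalization the counts were the same. Atp12a, the colonic proton pump, read 6.03 and 5.74 in bladder and 13.19 and 10.47 in large intestine, and Saa1, an acute-phase protein, 6.83 and 7.04 in bladder and 13.72 and 10.09 in large intestine. Replicate 1 of the large intestine was the higher in 16 of the 18 genes.

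Enterocyte and enteroendocrine genes were lower as well. Of 28 tested genes of enterocytes and their brush border 21 were called lower, led by Vil1 (-6.51), Slc15a1 (-6.35), Myo1a (-6.01), Mep1a (-5.54) and Cps1 (-5.08), which encode a microvillus bundler, a peptide transporter, a brush-border myosin, a surface protease and a urea-cycle enzyme. The 1 gene called higher was Lct, the lactase gene, at 10.06 and 9.60 in bladder and 5.55 and 5.13 in large intestine (4.49 ± 0.29 SE, adjusted p = 1.28e-10). Lct averaged 14.13 in small intestine, 5.85 in bladder at E15 and 11.01 in bladder at E19, and its difference was 4.57 between the knockout organs.

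Among 18 tested enteroendocrine genes 14 were called lower. Insl5, a hormone of the distal colon, read 5.23 and 5.13 in bladder and 13.42 and 12.62 in large intestine (-7.84 ± 0.26 SE), and Gcg, the proglucagon gene, was lower by 7.70. Insl5 averaged 5.66 in proximal stomach, 5.42 in distal stomach and 5.67 in small intestine, near its bladder level, whereas Gcg averaged 12.12 in small intestine. Gip and Cck, hormones of the upper gut, were called higher in bladder, by 1.33 and 1.15, and Cck came to 0.62, not called, without bladder replicate 1.

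The tested Gata factors were higher in bladder, and the Foxa factors split. Gata3 was higher in bladder by 5.42, Gata5 by 3.64, Gata4 by 1.66 and Gata6 by 1.23. Gata4 is a factor of foregut and small bowel, and its 8.12 and 8.09 in bladder stood above 6.77 and 6.12 in large intestine but below the 12.18 of distal stomach and 11.81 of small intestine. Foxa1 was higher by 0.70, while Foxa2 was lower by 3.56 and Foxa3 by 5.70. The stratified-epithelial factors Grhl3 and Grhl1 were higher by 4.10 and 3.25, and their relative Grhl2 was not called. Of 37 tested endodermal and epithelial factors, 14 were called higher and 17 lower.

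**Figure D2:**
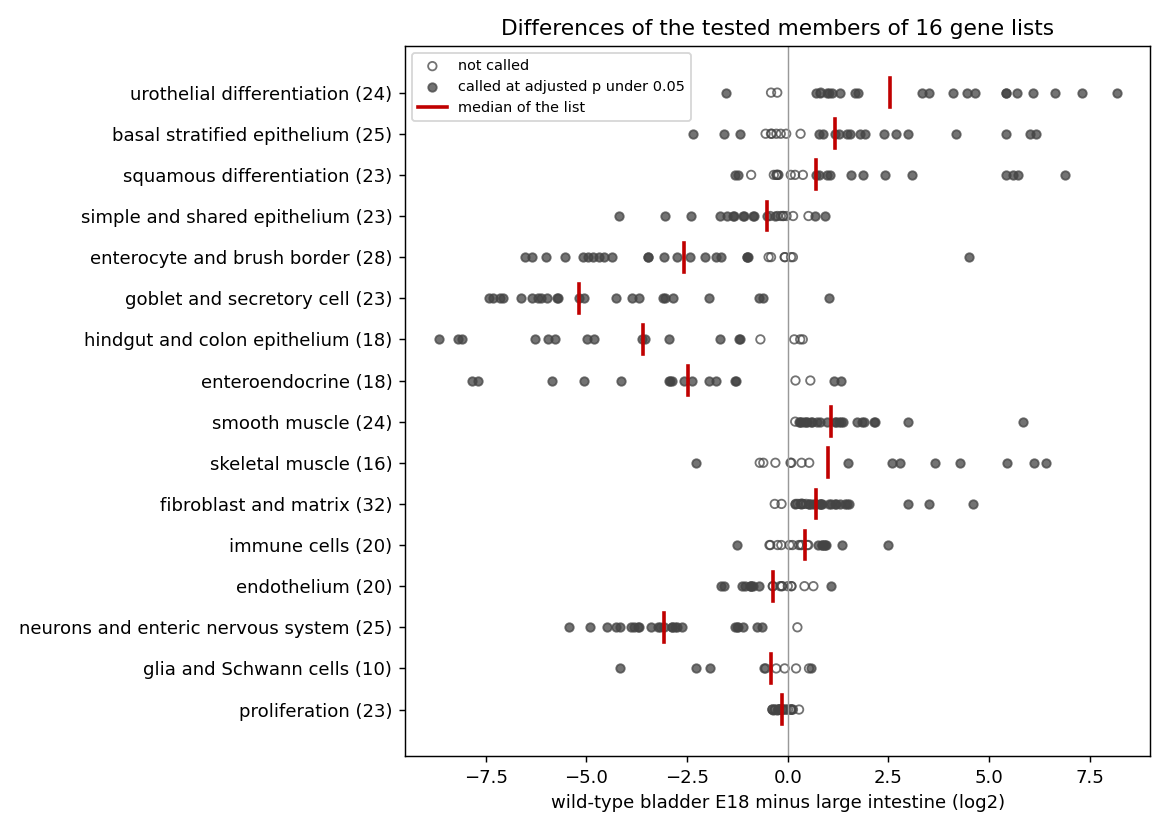
Difference of each tested gene, bladder minus large intestine in log2 units on the horizontal axis, for 16 of the gene lists, 1 point per gene with the list's median as a bar. Urothelial genes reach 8.16, goblet-cell genes and neuronal genes lie almost entirely below 0, and smooth muscle genes lie above it.

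The Hox genes, which mark position along the body axis, were shared in part and divided in part between the organs. Hoxa10 read 11.94 and 11.93 in bladder and 11.99 and 12.05 in large intestine (95% interval of the difference -0.62 to 0.44), and it averaged 4.15, 4.16 and 4.26 in proximal stomach, distal stomach and small intestine. Hoxd13, a most posterior Hox gene, read 11.35 and 11.57 in bladder and 11.89 and 10.41 in large intestine, against 4.41, 4.12 and 4.13 in those regions. Hoxa9 and Hoxd10 were not called between the organs either, with intervals of -0.55 to 0.59 and -0.98 to 0.42. Hoxd10 was likewise low in all of those regions. Hoxa9 was low in distal stomach and small intestine but read 8.41 and 8.30 in proximal stomach. For Hoxd13 the interval was -0.42 to 1.04. Without large intestine replicate 1, Hoxd13 was called higher in bladder (1.05, adjusted p = 0.0191) and Hoxd10 lower (-0.95, adjusted p = 0.0302).

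The anterior and HoxB members were lower in bladder. Hoxb5 read 8.62 and 8.93 in bladder and 12.28 and 12.25 in large intestine, a difference of -3.49 ± 0.21 (SE, adjusted p = 4.8e-11). Hoxd3 followed at -3.14, Hoxb13 at -2.94, Hoxb9 at -2.82, Hoxa5 at -2.58 and Hoxa3 at -2.54. Hoxa2, Hoxa4, Hoxb2, Hoxb3, Hoxb4, Hoxb6 and Hoxc4 were lower by 1.51 to 2.38. Hoxb13 is the most posterior gene of its cluster, so the lower HoxB level was not limited to anterior genes. In all, 27 of 39 listed Hox genes were tested, 13 were called lower and 2 higher, and the median was -0.28.

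Of the 2 higher Hox genes, Hoxd8 had unequal large intestine arrays and Hoxa11 was called close to the threshold. Hoxd8 read 12.19 and 12.20 in bladder and 9.48 and 11.27 in large intestine (1.82 ± 0.33 SE, adjusted p = 1.4e-04). Hoxa11 was higher by 0.61 (adjusted p = 0.042), and by 0.39 without large intestine replicate 1 (adjusted p = 0.305). It was not called without either bladder array (0.59 and 0.62), nor without the E19 bladder arrays (adjusted p = 0.056). The large intestine arrays also lay apart in Hoxd9, at 9.86 and 12.68, and in Hoxd11, at 7.67 and 9.73. Hoxd11 was not called with both arrays, but its difference was -0.94 without replicate 1 (adjusted p = 0.00869) and 1.11 without replicate 2 (adjusted p = 0.00271). The 2 probe sets of Hoxa9 differed in sign, as did those of Hoxa10, and none of them was called.

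**Figure D3:**
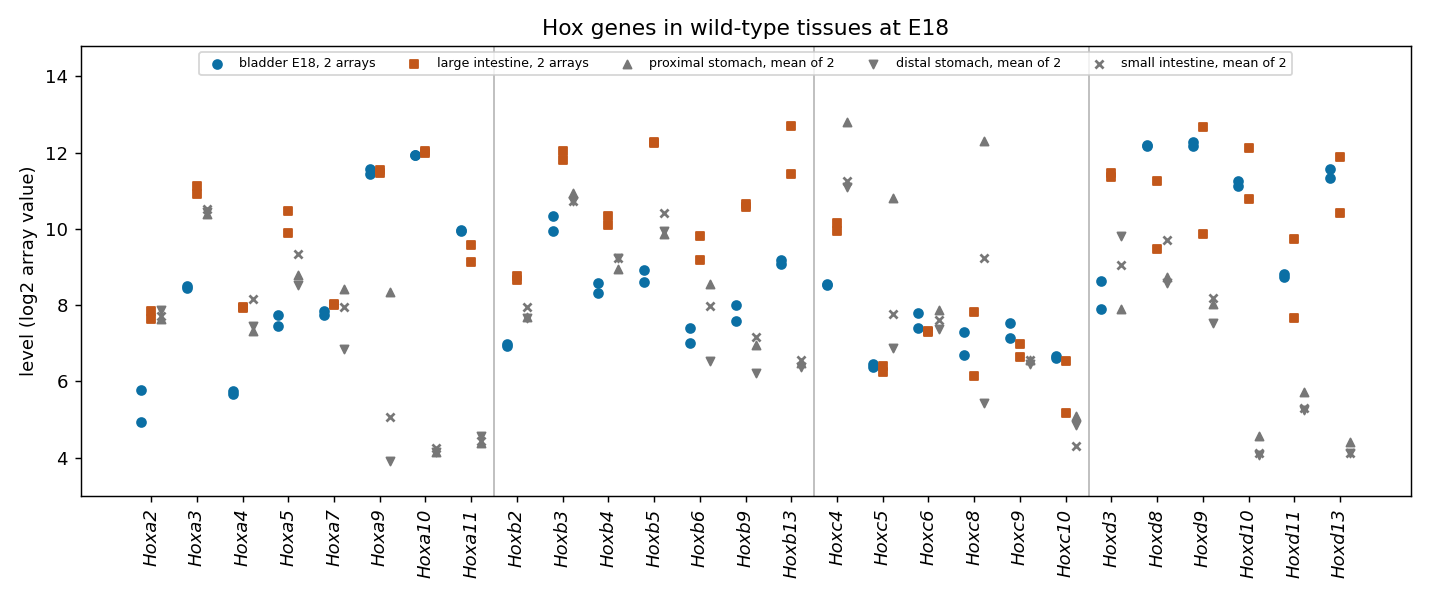
Log2 level of 27 Hox genes in wild-type bladder and large intestine per array and in proximal stomach, distal stomach and small intestine as means, ordered by cluster and number. The HoxA and HoxD genes from Hoxa10 and Hoxd10 onward are high in bladder and large intestine and near 4 to 6 elsewhere, and Hoxb5 is lower in bladder (8.62 and 8.93) than in large intestine (12.28 and 12.25).

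Set against the upper gut, the 2 hindgut organs together formed a larger shared set than the Hox genes alone. The mean of bladder and large intestine minus the mean of proximal stomach, distal stomach and small intestine was called for 6585 genes (48.4%). All 4 arrays lay above the 6 others in 620 called genes (4.55%) and below them in 333 (2.45%), and 438 (3.22%) and 253 (1.86%) of all genes were in these sets and not called between bladder and large intestine. This contrast shares its bladder and large intestine arrays with the organ comparison, so the values are given side by side. Hoxa10 stood at 7.79 in the shared contrast (-0.09 between the organs), Hoxd13 at 7.08 (0.31), Hoxd10 at 7.07 (-0.28) and Hoxa11os, an antisense transcript of Hoxa11, at 6.16 (-0.25).

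Upk1a and Atp12a were shared in direction but not in level. Upk1a stood at 5.10 in the shared contrast and 3.51 between the organs, and Atp12a at 4.42 and -5.95. The largest shared decreases were Cym, the gastric protease chymosin, at -6.15, Rbp2, the cellular retinol-binding protein of enterocytes, at -6.05, and Pga5, a pepsinogen, at -5.04. Cym read 5.33 and 5.6 in bladder and 5.55 and 5.28 in large intestine, against 10.21, 14.63 and 9.93 in proximal stomach, distal stomach and small intestine. Rbp2 was not equal in the organs, at 6.04 and 6.35 in bladder and 10.19 and 7.67 in large intestine, and its difference of -2.74 came to -1.48 without large intestine replicate 1. Sgpp2, a sphingosine phosphate phosphatase, was low in bladder alone, at 4.80 and 5.19, against 11.61 and 11.46 in large intestine.

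The muscle coats differed in degree for smooth muscle genes and in kind for a few striated ones. Myh11, the smooth muscle myosin, read 14.51 and 14.46 in bladder and 13.79 and 13.59 in large intestine, a difference of 0.79 ± 0.16 (SE, adjusted p = 5.4e-04). Acta2 and Actg2, the smooth muscle actins, were higher by 0.34 and 0.30, and neither was called without large intestine replicate 2. The 3 probe sets of Acta2 ranged between 0.34 and 2.45, so the value given is the smallest, read from a probe set near the top of the array's range of 15.4. Of 24 tested smooth muscle genes 23 were called higher in bladder and none lower, with a median of 1.07, and none was called lower after median centring or quantile normalization. The largest after Casq2 were Synm (3.0), Smtn (2.17), Kcnmb1 (2.15) and Ldb3 (1.89), which encode an intermediate filament protein, smoothelin, a potassium channel subunit and a Z-line protein. Large intestine replicate 1 was above replicate 2 in 23 of the 24 genes. In whole tissue, fewer cells of a type and less RNA per cell cannot be told apart.

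Acta1, the skeletal muscle actin, read 14.18 and 14.14 in bladder and 7.43 and 8.06 in large intestine (6.41 ± 0.53 SE, adjusted p = 4.02e-09). Tnnt3 and Tnnc2, fast troponins, were higher by 6.12 and 5.44, Ckm, the muscle creatine kinase, by 4.27, and Casq2, the calcium store protein calsequestrin, by 5.85. The regulators and several structural genes of skeletal muscle did not follow. Myod1 read 6.60 and 6.65 in bladder and 6.57 and 6.51 in large intestine, Myog 4.93 and 4.81 in bladder and 4.26 and 4.42 in large intestine, and Mylpf, the fast regulatory light chain, 7.77 and 7.98 in bladder and 7.38 and 7.68 in large intestine. None of the 3 was called, with an interval for Myod1 of -0.45 to 0.64 and for Myog of -0.95 to 2.02. Myl1, a skeletal light chain, was lower by 2.27, a call lost without bladder replicate 1 or without either large intestine array (-1.94 to -2.55). Of 25 listed skeletal muscle genes 16 were tested, with 8 called higher and 1 lower. Myh8, a skeletal myosin, was among the higher, at 10.73 and 9.88 in bladder and 6.48 and 6.80 in large intestine. In the knockout pair 12 of the 16 were called higher and none lower.

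These striated genes were low in the bladder at E15. Acta1 read 7.45 and 9.66 at E15, 14.18 and 14.14 at E18 and 14.64 and 14.54 at E19 in wild-type bladder. Ckm read 5.86 and 6.43 at E15, 11.91 and 11.78 at E18 and 13.36 and 13.23 at E19. Casq2 read 7.61 and 8.52 at E15, 12.77 and 12.23 at E18 and 13.23 and 12.92 at E19. In each gene the E15 bladder lay nearer to the E18 large intestine than to the E18 bladder. The E15 and E19 levels are given as levels, since the E19 arrays had lower medians over all probe sets (7.48 to 7.54) than the remaining arrays (7.73 to 7.86). Between the knockout organs at E18 the differences were 6.09 for Acta1, 4.81 for Ckm and 6.18 for Casq2.

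**Figure D4:**
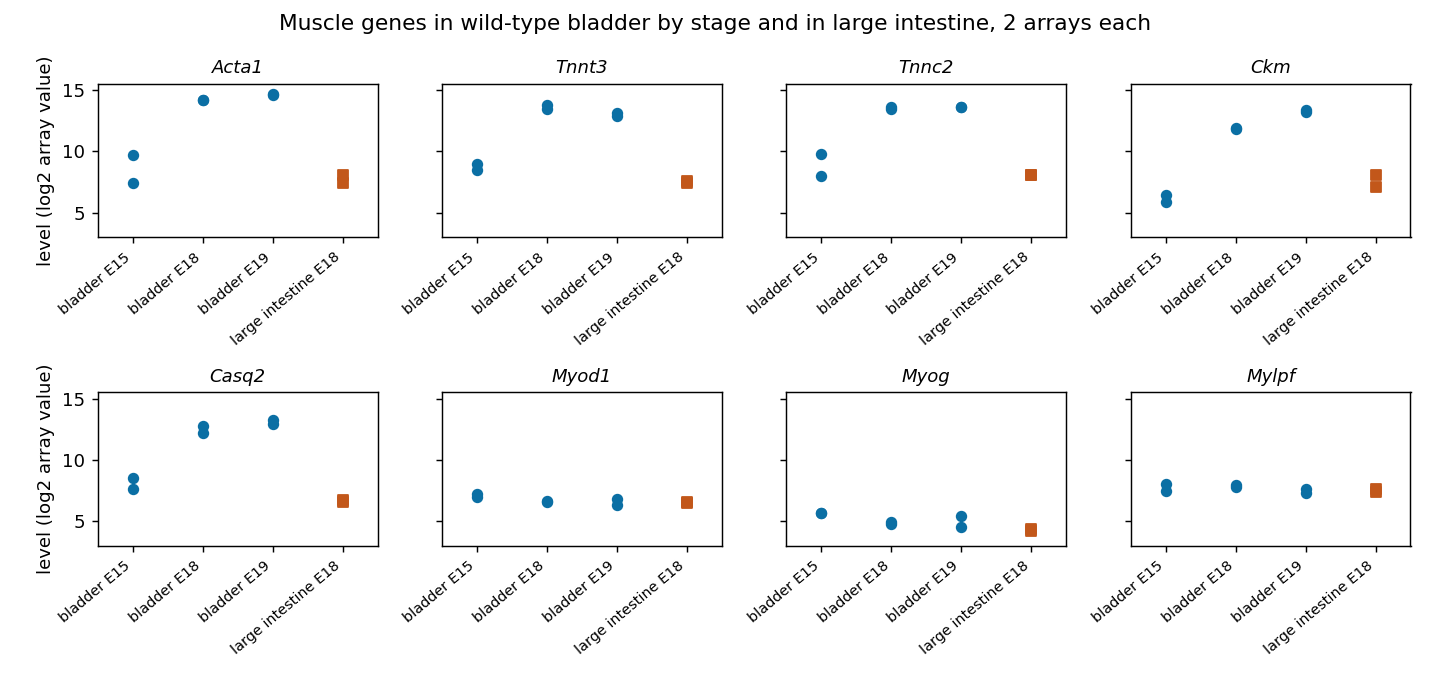
Log2 level per array of 8 muscle genes in wild-type bladder at E15, E18 and E19 and in wild-type large intestine at E18, with 2 arrays for each. Acta1, Tnnt3, Tnnc2, Ckm and Casq2 are high in bladder at E18 and E19, and Myod1, Myog and Mylpf are not called between the organs at E18, although Myog at E15 (5.67 and 5.68) lies above large intestine (4.26 and 4.42).

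Neuronal genes were lower in bladder. Elavl4, a neuronal RNA-binding protein, read 6.29 and 6.80 in bladder and 12.07 and 11.88 in large intestine, a difference of -5.43 ± 0.36 (SE, adjusted p = 1.6e-10). Tubb3, neuronal tubulin, was lower by 4.90, Ina, an intermediate filament, by 4.48, the nicotinic receptor subunit Chrna3 by 4.25, and Ret, the receptor that enteric neural crest cells need, by 4.16. Of 25 tested neuronal genes 24 were called lower and none higher, and 23 were called lower after either median centring or quantile normalization. Their median was -3.07. Replicate 2 of the bladder was above replicate 1 in 22 of the 25.

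Glia and pacemaker cells followed in part. Sox10, a factor of neural crest glia, read 6.17 and 6.83 in bladder and 10.59 and 10.72 in large intestine (-4.15 ± 0.32 SE), and Fabp7 was lower by 2.28. Of 10 tested glial genes 4 were called lower and 1 higher. Kit, the receptor of the interstitial cells of Cajal, was lower by 2.63, while Ano1, their chloride channel, was not called, at 12.61 and 12.57 in bladder and 12.43 and 12.38 in large intestine.

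Connective tissue genes were higher in bladder. Pi16, a marker of adventitial fibroblasts, read 11.06 and 10.86 in bladder and 6.20 and 6.52 in large intestine (4.6 ± 0.21 SE, adjusted p = 7.6e-13). Mfap5, a microfibril protein, was higher by 3.5, Thy1 by 2.98, and the proteoglycans Ogn and Bgn by 1.52 and 1.48. Of 32 tested genes 22 were called higher and none lower, with a median of 0.70, and none was called lower after median centring or quantile normalization. Col1a1, a fibrillar collagen, was higher by 0.71.

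Transcription factors of the mesenchyme divided by family. Tbx20 read 11.06 and 10.71 in bladder and 6.4 and 5.53 in large intestine (4.92 ± 0.53 SE, adjusted p = 2.2e-07), and Tbx4, Tbx5, Tbx18 and Tbx2 were also higher, by 4.26, 2.87, 2.42 and 1.35. Msx2 and Prrx1, homeobox genes of mesenchyme, were higher by 4.35 and 3.73. Sall1, Sall4 and Zfhx4 were lower by 4.74, 3.71 and 2.97, with Sall1 at 4.98 and 5.09 in bladder and 9.76 and 9.81 in large intestine. Foxf1, a mesenchymal Hedgehog target of gut and bladder, was not called, at 12.63 and 12.76 in bladder and 12.96 and 12.89 in large intestine. Of 42 tested factors 17 were called higher and 11 lower.

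Among Hedgehog genes the ligands differed in opposite directions. Shh, the Hedgehog ligand of bladder and gut epithelium, was higher by 1.72 ± 0.46 (SE, adjusted p = 0.0049), at 11.91 and 12.41 in bladder and 9.83 and 11.04 in large intestine, but it was not called without large intestine replicate 1 (1.12, adjusted p = 0.105) or bladder replicate 2 (1.48, adjusted p = 0.0571). Ihh, the second Hedgehog ligand of the gut, was lower by 3.76. Their receptor and target Ptch1 read 13.26 and 13.44 in bladder and 13.32 and 13.52 in large intestine (interval -0.32 to 0.18), while the target Gli1 was lower by 1.12. Gli1 fell short of the threshold without bladder replicate 2 (-0.91) or large intestine replicate 2 (-0.84).

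Wnt genes differed in both directions. Wnt2 read 9.32 and 9.48 in bladder and 5.24 and 5.07 in large intestine (4.25 ± 0.23 SE, adjusted p = 6.3e-12), and Wnt10a, Wnt4 and the Wnt inhibitor Notum were higher by 3.14, 2.61 and 2.61. Lef1, a transcription factor of the pathway, was higher by 2.92. Wnt5a was lower by 1.42, the R-spondins Rspo2 and Rspo3, which amplify Wnt signals, by 2.06 and 1.99, and their receptor Lgr5 by 1.69. Without large intestine replicate 1 Lgr5 came to -1.15 (adjusted p = 0.0517), and Rspo2 was not called without bladder replicate 1 (-1.64) or large intestine replicate 2 (-1.88). Of 31 tested Wnt genes 13 were called higher and 9 lower.

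In the Bmp pathway Msx2 was the largest difference, and the antagonist Grem1 was lower by 3.79, at 5.21 and 5.39 in bladder and 9.56 and 8.62 in large intestine. Fst, follistatin, rested on the large intestine arrays, with 7.59 and 7.63 in bladder and 8.59 and 11.34 in large intestine, a difference of -2.35 that came to -0.98 without large intestine replicate 2 and -3.73 without replicate 1. Bmp4 was not called. Of 17 tested Notch genes 8 were called lower and 1 higher. Hey2, Notch4 and Heyl were lower by 2.22, 1.45 and 1.40, and the ligand Jag2 was higher by 1.26. In the Fgf pathway Fgf7, a mesenchymal ligand that acts on urothelium, was higher by 2.39, and Fgfr4, Fgf13 and Fgf9 were lower by 2.51, 2.49 and 1.71. Of 16 tested Fgf genes 2 were called higher and 6 lower. Among 17 retinoic acid genes 5 were called in each direction, Rbp4 the highest at 2.13 and Crabp1 the lowest at -2.90, and their median moved from -0.16 as deposited to 0.03 after quantile normalization.

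Channels and transporters differed in both directions, aquaporins included. Slc14a1, the urea transporter, read 12.14 and 11.69 in bladder and 5.57 and 4.90 in large intestine (6.68 ± 0.36 SE, adjusted p = 7.75e-12), 103-fold. The aquaporins Aqp3 and Aqp1 were higher by 4.44 and 2.91 and the sodium channel subunit Scnn1g by 2.51. Lower were Aqp4 (-5.15), the chloride channel Cftr (-4.11), the potassium channel subunit Kcne3 (-3.79) and Aqp8 (-3.62). The large intestine arrays lay far apart for both of the lower aquaporins. Aqp8 read 5.70 and 5.45 in bladder and 11.39 and 7.0 in large intestine, and Aqp4 4.73 and 5.02 in bladder and 11.46 and 8.60 in large intestine. In all, 4 of 24 tested channels and transporters were called higher and 11 lower.

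Among claudins, the sealing proteins of tight junctions, Cldn10 and Cldn1 were higher by 3.21 and 1.95, and Cldn2, Cldn3 and Cldn7 lower by 4.52, 4.19 and 1.68. Cldn8 was shared, at 12.16 and 12.19 in bladder and 12.40 and 12.47 in large intestine (interval -0.78 to 0.26), and averaged 7.08 in proximal stomach, 7.14 in distal stomach and 11.85 in small intestine.

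Immune, vascular and growth genes differed less. Of 20 tested immune genes 8 were called higher in bladder and 1 lower, led by Cpa3, a mast cell protease, at 2.49, and the macrophage receptor Mrc1, at 1.34. The exception was Cd74, the class II invariant chain, at -1.26. The class II gene H2-Aa was not called by the probe set used, although 2 of its 3 probe sets were called lower. Among 20 endothelial genes 9 were called lower and 1 higher, Lyve1, a lymphatic marker whose difference of 1.09 came to 0.25 without large intestine replicate 2 and was not called without either bladder array. Prox1 (-1.66) and Plvap (-1.59) were the largest. In the knockout pair 5 of the 20 endothelial genes were called higher and 1 lower, and none was called for a change between the genotypes. Of 23 proliferation genes 2 were called lower, Pcna and Top2a by 0.26 and 0.38, and neither was called after median centring or without large intestine replicate 2. Mki67 read 12.66 and 12.57 in bladder and 12.78 and 13.07 in large intestine (interval -0.64 to 0.02).

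Markers of neighbouring tissues were read for what else the organs could hold. The liver gene Alb, albumin, read 6.51 and 6.60 in bladder and 11.58 and 9.03 in large intestine, and its difference of -3.75 came to -2.48, not called (adjusted p = 0.111), without large intestine replicate 1. Of 9 tested liver genes 7 were called lower, and large intestine replicate 1 was above replicate 2 in 8 of the 9. Some of these genes were also high in wild-type small intestine. There Hnf4a read 13.88 and 13.74, Afp 12.95 and 11.96 and Fga 10.55 and 8.38, and Serpina1b stood above its large intestine level. Alb was lower there than in large intestine, at 7.13 and 6.57. Whether the samples held liver tissue was not tested, nor was the part of the liver genes in the colonic differences. Of 25 listed genes of the Wolffian and Müllerian ducts, prostate and kidney, 18 were not tested, and Gata3 was the only one called higher. Pancreatic and gastric lists gave 1 gene called in each direction, and the pancreatic Cela1 (1.06) and gastric Ctse (1.89) came to 0.54 and 1.17, neither called, without large intestine replicate 2. The other kept probe set of Ctse was called lower in bladder (-0.64).

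Immediate early and heat shock genes were higher in bladder in part. Of 17 tested genes 8 were called higher and none lower, with Fosb at 3.27, Hspa1b at 2.49, Hspa1a at 2.08 and Fos at 1.91. Fos read 12.35 and 12.44 in bladder and 10.44 and 10.53 in large intestine, while Jun was not called. Fosb was not called without any 1 of the 4 arrays (3.08 to 3.47). Their part in the other differences was not tested.

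The organ difference was then read in the knockout. Its means came from 4 other arrays, while the spread of each gene came from all 28 arrays in both genotypes. Between knockout bladder and knockout large intestine 6320 genes were called (46.4%), 3067 higher (22.5%) and 3253 lower (23.9%). Genes called higher in both genotypes numbered 2036, which is 66.4% of the knockout calls and 80.4% of the wild-type calls. Genes called lower in both numbered 2189, 67.3% of the knockout calls and 72.7% of the wild-type calls, and 17 were called in opposite directions. Of the 77 genes that exceeded large intestine by 16-fold or more in the wild type, 75 were called higher in the knockout pair, and of the 164 that lay 16-fold or more below it, 162 were called lower. The knockout arrays were less balanced. Both knockout bladder arrays lacked Eif2s3y signal (4.18 and 4.24), and the knockout large intestine arrays read 11.89 and 4.19.

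A test of the difference itself, the knockout organ difference minus the wild-type one, called 160 genes (1.18%), 86 positive (0.632%) and 74 negative (0.544%). Positive genes made up 53.8% of them as deposited, 38.2% after median centring and 41.2% after quantile normalization. The count depended on single arrays, with 67 genes without wild-type large intestine replicate 1 and 368 without replicate 2, and 23 when the fit held only the 8 arrays compared. In that fit of 8 arrays Nlrp10, Reg4, Krt15, Lce3f, Lypd3 and Hrnr were not called.

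Of the lists, 7 of 23 tested goblet-cell genes and 1 of 28 enterocyte genes were among the 160. Tff3 read 11.70 and 11.83 in knockout bladder and 14.60 and 14.47 in knockout large intestine, a difference of -2.77, against -7.33 in the wild type, and the test of the change gave 4.55 (adjusted p = 3.7e-09). Guca2a, the peptide guanylin, read 11.78 and 11.92 in knockout bladder and 12.94 and 13.41 in knockout large intestine, a change of 4.88 (adjusted p = 1.0e-08). Reg4, a secretory lectin, and Anxa13, an epithelial annexin, changed by 5.06 and 4.0. Nlrp10, an innate immune gene of stratified epithelium, read 11.05 and 11.72 in knockout bladder and 4.74 and 4.94 in knockout large intestine, against 4.97 and 6.38 in wild-type bladder and 6.77 and 4.58 in wild-type large intestine, a change of 6.55 (adjusted p = 2.2e-05). By contrast Muc2, Atoh1 and Cdx2 gave no called change, with Cdx2 at 5.30 and 5.33 in knockout bladder and 13.04 and 13.21 in knockout large intestine.

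The basal keratins Krt5 and Krt15 lost most of their organ difference in the knockout. They were named for the size of that change, and the other listed basal keratins are not covered by it. Krt5 read 7.44 and 7.78 in knockout bladder and 6.61 and 6.73 in knockout large intestine, a difference of 0.94 against 5.41 in the wild type, so the change was -4.47 (adjusted p = 3.7e-09). Krt15 read 11.74 and 8.70 in knockout bladder and 8.74 and 8.30 in knockout large intestine, and its change of -4.46 came to -2.94 without knockout bladder replicate 2. Its knockout organ difference of 1.70 came to 0.18, not called, without knockout bladder replicate 1, and 3.22 without replicate 2. Lypd3, a surface protein of stratified epithelium, changed by -3.95. Lce3f and Hrnr, both cornified-envelope genes, changed by -4.29 and -3.73, yet there it was the knockout large intestine that stood high, at 8.92 and 10.61 for Lce3f and 6.0 and 9.21 for Hrnr. Krtdap, with a change of -3.29, read 11.84 and 12.02 in knockout bladder and 8.19 and 11.07 in knockout large intestine, so there too the knockout large intestine stood above the wild type (6.59 and 6.75). Hrnr came to -2.13 without knockout large intestine replicate 2. Its call was lost without either bladder array of either genotype or without wild-type large intestine replicate 1 (-3.68 to -3.77). Lce3f was not called without wild-type large intestine replicate 1 (-3.34) or knockout large intestine replicate 2 (-3.44).

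Trp63 kept a called organ difference in the knockout by its brightest probe set, with 11.37 and 11.26 in knockout bladder and 5.99 and 7.51 in knockout large intestine (4.57, adjusted p = 5.1e-09). Where its probe sets lie relative to the deletion is not given in the sources used here, so the signal checks nothing about the allele. The urothelial list gave 19 of 24 genes called higher and 1 lower in the knockout pair, with a median of 2.70. The basal list gave 13 higher and 7 lower of 25, with a median of 0.71, and the squamous list 7 higher and 5 lower of 23, with a median of -0.012. Neuronal genes were called lower in 20 of 25 and none higher, and smooth muscle genes higher in 20 of 24. Proliferation genes were called lower in 21 of 23 in the knockout pair, while 1 of the 23 was called for a change between the genotypes.

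**Figure D5:**
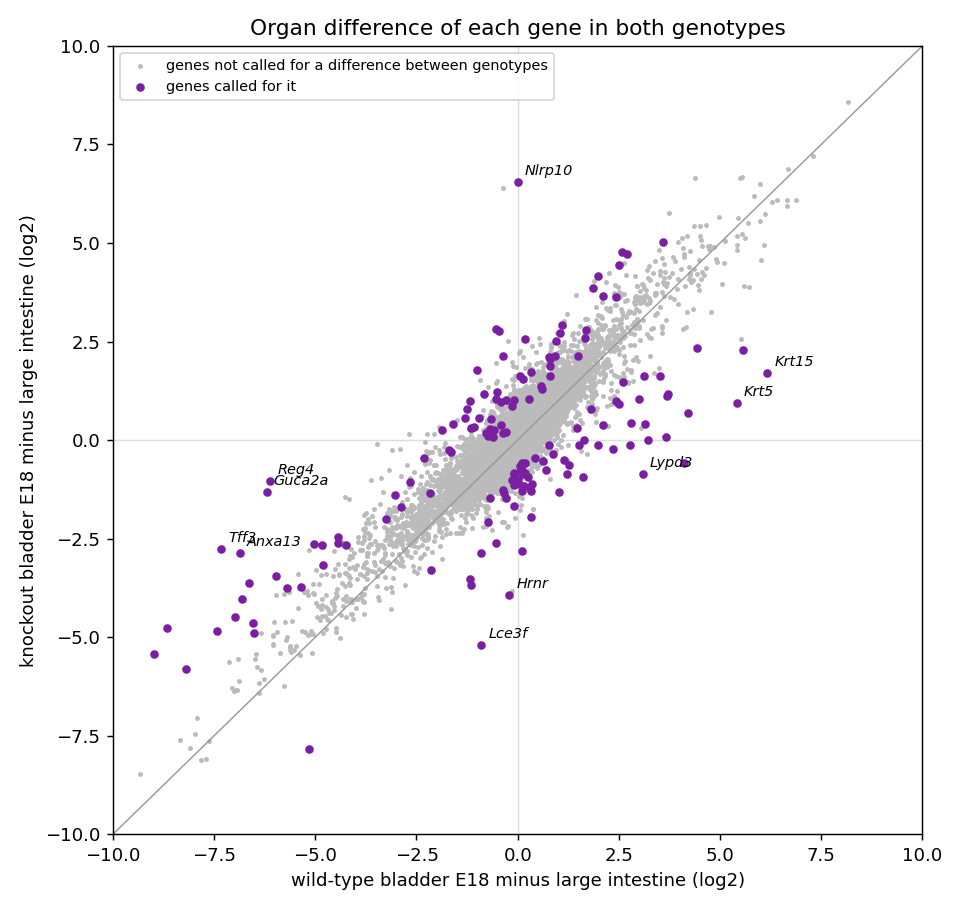
Organ difference of every tested gene in the knockout (vertical axis) against the wild type (horizontal axis), both bladder minus large intestine in log2 units, with the 160 genes whose difference changed in purple. Most genes lie along the diagonal, Tff3 and Guca2a lie above it and Krt5 and Krt15 below it.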

How the data were processed

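RNA of whole tissue was measured on Affymetrix mouse expression arrays, after Trizol extraction and biotin labelling with a 3' IVT kit, per the labels' protocols. The values the authors deposited are log2 signals between 2.98 and 15.4. Affymetrix Expression Console and Partek are named in the submitters' processing notes; how background was corrected and arrays were normalized is not given in the sources used here, and no further normalization was applied.

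Of 45101 probe sets, 64 controls were left out. A probe set was kept where it exceeded the array's median on at least 2 of 28 arrays (28866 kept). Of 45037 non-control probe sets, 34945 carried 1 gene symbol in the platform annotation, 932 several and 9160 none, and 34754 identifiers matched the RefSeq table of GRCm38.p6 while 204 did not. Each gene was read by its kept probe set of highest mean, giving 13613 genes. Among genes named here, kept probe sets disagreed in call for Acta2, Ctse, Dst, Epcam, Esrp2, Fgfr4, Fst, Gata4, H2-Aa, Krt13, Prox1 and Top2a. They disagreed in sign for Ano1, Ctse, Dst, Hoxa9, Hoxa10, Itga6, Ptch1, Top2a and Xist. limma 3.58.1 (R 4.3.3) estimated the means of all 14 groups (eBayes with a trend, Benjamini-Hochberg adjustment over all genes, called at an adjusted p under 0.05, 14 residual and 6.19 prior degrees of freedom). With 2 arrays against 2, the smallest p of an exact permutation is 0.333. The number of arrays limits the precision.

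Named genes were the 15 largest called differences each way, the largest of the shared and of the genotype contrasts, up to 5 called members per list, the uroplakins in full and every Trp63 probe set. Members that were not called, lone exceptions within a list, and regulators set beside them were chosen after their values were seen. The members and lists were chosen with earlier results of these data known. Alternatives changed the arrays fitted, filter, probe set rule, normalization, variance model, covariates and fold threshold, and left out each array; leaving out the E19 bladder arrays was chosen after seeing the data. The code was tested on simulated data. Replicate numbers were not taken as pairs. Figures used Python 3.11.15 and matplotlib 3.10.9.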

Additional observations from a re-analysis of the deposited data

Results flagged for a closer look

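Each result here was picked out because the organ difference, bladder minus large intestine, differed between the knockout and the wild type by limma's test of that difference. It held for 160 genes. The organ difference was more positive in the knockout for Nlrp10 by 6.55 on the log2 scale, Reg4 by 5.06, Guca2a by 4.88, Tff3 by 4.55 and Anxa13 by 4.0. Among genes lower in wild-type bladder the change was 3.88 for Sval1, 3.57 for Mptx1, 3.01 for Fcgbp, 2.59 for Spink4, 2.36 for Lypd8, 1.95 for Foxa3, 1.90 for Sgpp2, 1.64 for Agr2 and 1.61 for Vil1. Rasgrp1 changed by 2.78 and Upk3b by 0.94.

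The organ difference was more negative in the knockout for stratified-epithelial genes, with Krt5 at -4.47, Krt15 at -4.46, Lce3f at -4.29, Lypd3 at -3.95, Hrnr at -3.73, Krtdap at -3.29 and Pkp1 at -1.96. For Lce3f, Hrnr and Krtdap it was the knockout large intestine that stood above the wild type. The calls of Lce3f and Hrnr were lost when some single arrays were left out. It was also more negative for Wnt10a at -2.73, Aldh1a1 at -1.17 and Wnt4 at -1.13. The part of the unequal Y-linked signal of the knockout arrays in these changes was not tested.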

How the results depend on the processing

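The wild-type organ comparison called 5542 genes as reported and between 4151 and 4695 with 1 of its arrays left out, and none of the 30 largest differences lost its call in any alternative. The replicate block gave 5565 calls (5476 of them shared), 6325 between the knockout organs, 161 for the change between genotypes and 6587 for the shared contrast. Same-numbered arrays were not shown to be pairs, since only 2 pairs exist and deviations correlated at 0.0568 in the wild type. Reading every probe set gave 10321 calls in the wild type, 11823 in the knockout and 12105 in the shared contrast, among 28866 probe sets tested instead of 13613 genes. Testing for a fold of at least 2 gave 1121 calls in the wild type, 1109 in the knockout, 19 for the change and 467 in the shared contrast. The change between genotypes was the least stable, with 23 calls from the arrays compared alone and 67 to 368 with 1 array left out. It was 84 and 80 without a wild-type bladder array, 67 and 368 without a wild-type large intestine array, and 317 and 78 without a knockout large intestine array. In sign, Dst turned to 1.78 when probe sets were averaged and Hoxd11 to -0.94 without large intestine replicate 1, against 1.11 without replicate 2. The cause was not tested.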

Other observations

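Dst, a cytoskeletal linker of hemidesmosomes, differed by -0.04 between bladder and large intestine when read by its brightest probe set and by 1.78 (adjusted p = 1.52e-07) when its probe sets were averaged. Y-linked Eif2s3y and X-linked Xist were both low on knockout large intestine replicate 2, at 4.19 and 6.29, whereas on the other arrays of these organs one was high where the other was low.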
